A study of Mus musculus with 150 samples.

Results

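Copy number along the 19 autosomes was compared bin by bin between T1 and T7, 2 lung tumours microdissected from the same mouse. The tables held 50 single cells of each tumour, and a cell was dropped when the noise of its log2 ratios was above 0.267. The highest noise kept was 0.266 and the lowest left out was 0.288. This left 47 T1 and 48 T7 cells, 95 of the 100 cells deposited for both tumours and of the 150 cells in the series. The animal, M3, was labelled KP and had been followed for 30 weeks after tumour induction. The labels give a mixed C57BL/6 and Sv129 background, Trp53flox/flox, Rosa26LSL-tdTomato and Rosa26LSL-Luciferase strains, and induction by AdSPC-Cre or AdCMV-FlpO without saying which of them this mouse received. Both tumours share this genotype, age and induction, so the comparison is between tumours of 1 animal and not between treatments. The source is given as AT2 cells of lung tissue, an identity that DNA cannot check.

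Lung adenocarcinomas that lack functional p53 tolerate missegregated chromosomes and often carry gains and losses of whole chromosomes or arms. Separate tumours of 1 animal can arise from separately recombined cells, and the changes of each tumour are then a record of its own history. Whether T1 and T7 arose separately was not tested. Chromosome 4 of the mouse carries the cell cycle inhibitor genes Cdkn2a and Cdkn2b, and chromosome 6 carries the Rosa26 reporter locus.

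Each group was 1 tumour (n = 1), so no test between tumours was possible and every statement describes these cells. Levels are log2 ratios relative to the median autosomal bin of the same cell and cannot show a doubling of the whole genome. T1 cells were sequenced more deeply, with a median of 0.0383 reads over each base against 0.0269 in T7, yet were noisier, with a median noise of 0.191 against 0.146. Intervals behind shares of cells are exact Clopper-Pearson 95% intervals that cover counting error only. Low coverage without molecular identifiers leaves amplification error uncounted.

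The bin medians of T1 and T7 differed most on chromosomes 4 and 9. Of 4806 autosomal bins, 312 (6.49%) were higher in T1 than in T7 by at least 0.32 on the log2 scale, and 744 (15.5%) were lower in T1 by as much. The lower bins were concentrated on chromosome 4 (298 of its 311 bins), chromosome 9 (197 of 244) and chromosome 2 (85 of 359). The higher bins were spread over chromosomes 3 and 5 (63 each), 12 (46), 18 (40), 8 (39) and 14 (22). Of all differing bins, 29.55% were higher in T1, and this split depended on the scale, at 9.71% with each cell centred on its most common level and 44.5% with the ratio taken from depth.

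**Figure D1:**
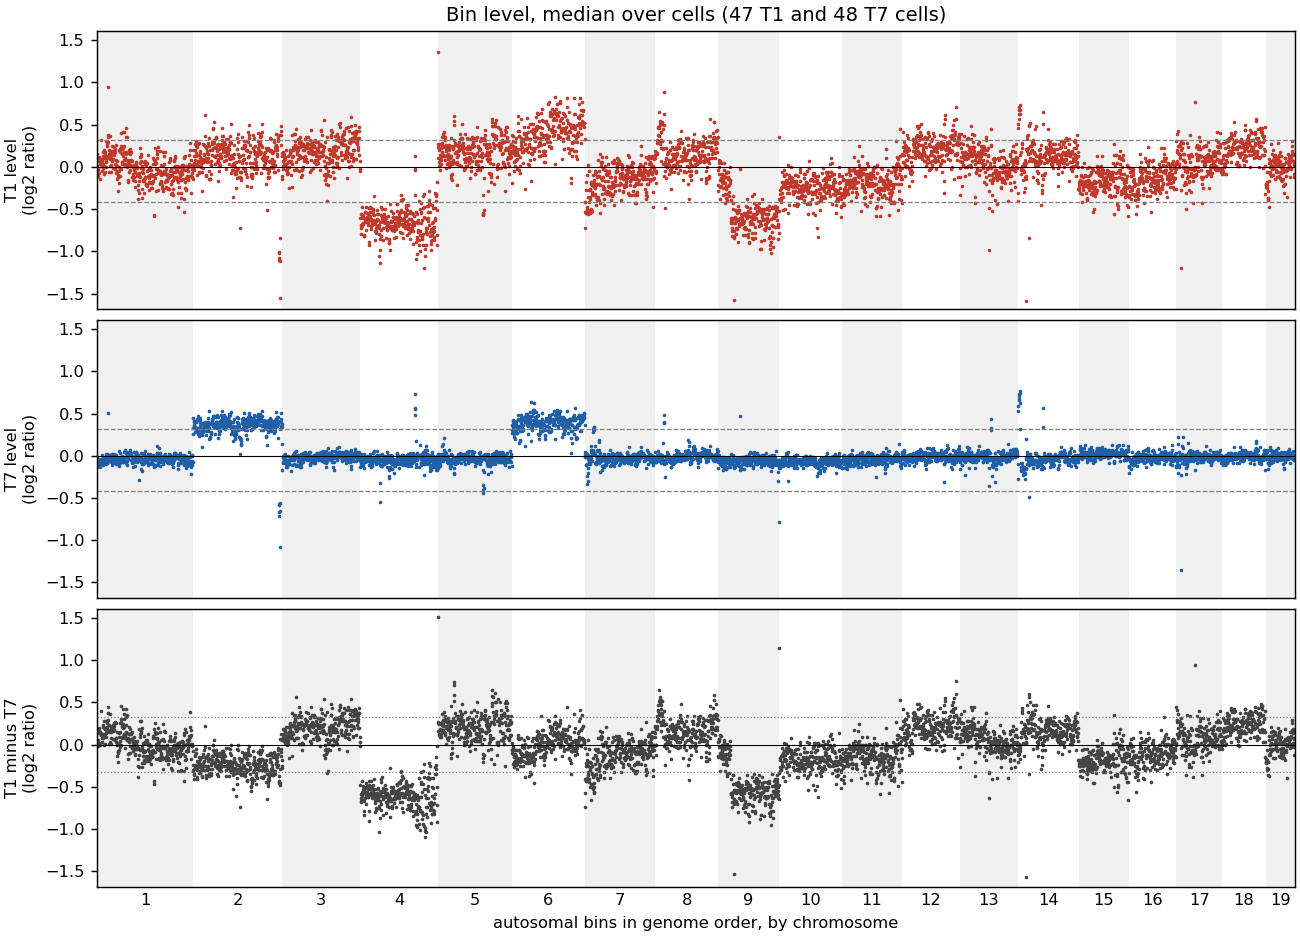
Median log2 ratio over 47 T1 cells (top) and 48 T7 cells (middle) for each autosomal bin in genome order, and the difference T1 minus T7 (bottom). Dashed lines mark the gain and loss thresholds of 0.32 and -0.42, and dotted lines the difference of 0.32. Apart from a few bins T7 is near 0 outside chromosomes 2 and 6. T1 lies below the loss threshold in most bins of chromosome 4 and of distal chromosome 9, and at several levels elsewhere.

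Segments of each cell were called gained at 0.32 or above and lost at -0.42 or below, the log2 of 2.5 and of 1.5 copies over 2, and bins were sorted by the share of cells of each tumour with the call. A bin was placed in most cells of a tumour at 50% or above and in few below 20%. Changes in most cells covered 346.7 Mb of the autosomes in T1 (14.5%) and 314.6 Mb in T7 (13.1%). The 2 sets met on 99.25 Mb, which was 28.6% of the T1 set and 31.5% of the T7 set. T1 had 99.25 Mb gained and 247.5 Mb lost, whereas T7 had 314.6 Mb gained and 0 Mb lost. No bin was gained in most T1 and few T7 cells, lost in most T7 and few T1 cells, or lost in most cells of both.

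The losses private to T1, which here means against T7, held 504 bins (10.5% of all bins) and 2299 protein-coding genes, and they lay on chromosome 4 and on chromosome 9 from 28840442 to 124495110 (GRCm38). The calls reached the end of chromosome 4, but its last 5.52 Mb, shorter than the least segment length of 10 Mb, had a T1 median of -0.34, was at or below the loss threshold by its own level in 16 of 47 T1 cells, and differed from T7 by a mean of -0.24. Chromosome 4 had levels from -0.81 to -0.31 with a median of -0.69 (SD 0.10) over the 47 T1 cells, and from -0.30 to 0.04 with a median of -0.04 (SD 0.07) over the 48 T7 cells. Every T1 cell thus lay below every T7 cell, and the medians differed by -0.66. A loss spanning most of it was seen in 45 T1 cells out of 47 (95.7%, 85.5 to 99.5). In T7 the count was 0 of 48 (0%, 0 to 7.40).

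Distal chromosome 9 had levels from -0.82 to -0.40 with a median of -0.64 in T1, and from -0.78 to 0.03 with a median of -0.03 in T7. The loss was called in 45 of 47 T1 cells (95.7%, 85.5 to 99.5) and in 3 of 48 T7 cells (6.25%, 1.31 to 17.2). Unlike on chromosome 4 the ranges overlapped, as the lowest T7 cell was nearly as low as the lowest T1 cell. Both losses together were called in 44 of 47 T1 cells (93.6%, 82.5 to 98.7) and in no T7 cell. In T9, the other tumour of the series, distal chromosome 9 was called lost in 47 of 50 cells and chromosome 4 in 5 of 50. Loss on distal chromosome 9 was thus not limited to T1, although a call needed only 50% of the bins of the region. The T9 loss did not reach the start of the region, where Chek1 was gained in 45 and lost in 0 of 50 T9 cells.

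The T1 loss of chromosome 9 began at a breakpoint within the chromosome. A downward step of at least 0.3 within 2 Mb of 27845206 was found in 45 of 47 T1 cells and in 0 of 48 T7 cells. Most of the cells broke at neighbouring bin boundaries, 15 after 28342823, 16 after 28840441 and 8 after 29338058, and the outermost lay at 26352354 and 29835675. The part before the step had levels from -0.34 to 0.04 with a median of -0.17 in T1, and the part after it from -0.81 to -0.40 with a median of -0.64. The level after the step was lower in 47 of 47 T1 cells, with differences from -0.72 to -0.26, and in 19 of 48 T7 cells. T9 broke elsewhere, at 47252283 in 49 of its 50 cells. The step separated 199 protein-coding genes before it, among them Keap1 and Smarca4, from 1002 after it, among them Chek1, Atm, Setd2 and Tgfbr2.

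**Figure D2:**
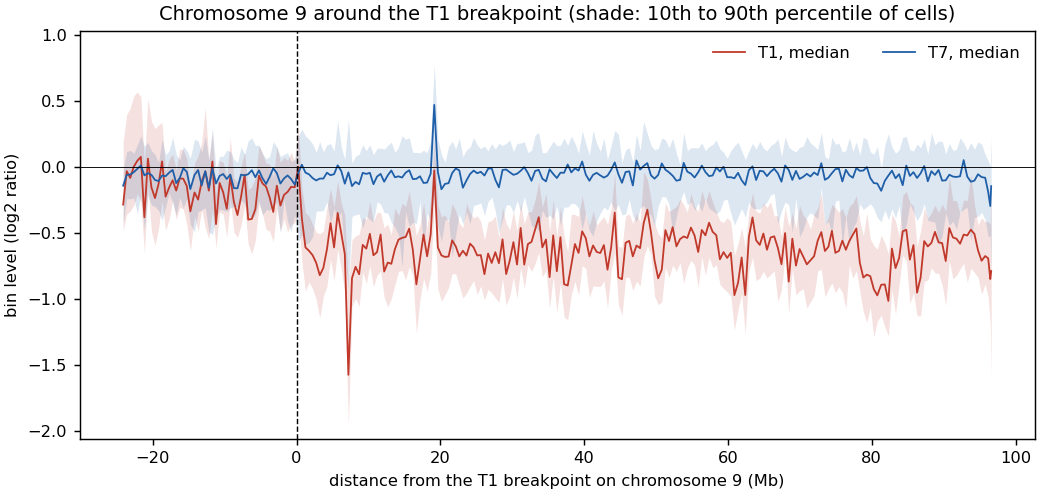
Level of chromosome 9 bins (log2 ratio) against the distance from the T1 breakpoint in Mb, as the median over 47 T1 and 48 T7 cells with the 10th to 90th percentiles of cells shaded. The T1 median falls within the first bins after the breakpoint and is low in most bins to the end of the chromosome, and the T7 median is near 0 in most bins on both sides. A bin about 19.2 Mb after the breakpoint stands apart, at -0.03 in T1 and 0.47 in T7.

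The gain private to T7 held 337 bins (7.01% of all bins) and 1648 protein-coding genes on chromosome 2, from 3050001 to 171503467. This region had levels from -0.08 to 0.50 with a median of 0.39 in T7, and from -0.53 to 0.25 with a median of 0.16 in T1. The T7 median lay above the highest T1 cell and the lowest T7 cells lay within the T1 range, so the groups overlapped. The gain was called in 35 of 48 T7 cells (72.9%, 58.2 to 84.7) and in no T1 cell of 47, where shares below 6.38% could be missed. T1 was not flat here: over the whole chromosome the T1 median of 0.16 stood against medians of -0.04 to -0.01 for the unchanged chromosomes of T7, and the difference T1 minus T7 was -0.23.

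Chromosome 6 was gained in both tumours, but not over the same length. The gain in most cells of both tumours held 199 bins (4.14% of all bins) and 808 protein-coding genes, from 50235025 to 149586546. There the T1 levels ran from 0.07 to 0.66 with a median of 0.47 and the T7 levels from -0.01 to 0.80 with a median of 0.38, and the gain was called in 37 of 47 T1 cells (78.7%, 64.3 to 89.3) and 36 of 48 T7 cells (75%, 60.4 to 86.4). The 94 bins (1.96%) before 50235024 were gained in 36 of 48 T7 cells at a median of 0.38 but in 15 of 47 T1 cells (31.9%, 19.1 to 47.1) at a median of 0.20. Within single cells the distal part was higher than the proximal part in 41 of 47 T1 cells, by a median of 0.08 and at most 0.51, and in 30 of 48 T7 cells, by a median of 0.01 and at most 0.05. The boundary is that of the share of cells and was no recurrent breakpoint. Over the whole chromosome the medians of 0.39 in T1 and 0.38 in T7 differed by 0.01, and between -0.08 and 0.02 over the alternatives, with both signs.

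Together these changes gave 2 sets of cells. The losses of chromosome 4 and distal 9 went with the gain of distal 6 in 35 T1 cells (74.5%, 59.7 to 86.1), a combination found in 0 T7 cells. Gain of chromosome 2 with distal 6 was found in 32 T7 cells (66.7%, 51.6 to 79.6) but not in any T1 cell. Among the T7 cells, 3 carried the gain of chromosome 2 without that of distal 6 and 4 the reverse. No cell of either tumour combined the gain of chromosome 2 with the loss of chromosome 4. This follows from the single counts, as no T1 cell had that gain and no T7 cell that loss. None of the changes of chromosomes 2, 4, distal 6, distal 9 and distal 10 was called in 7 of 48 T7 cells (14.6%, 6.07 to 27.8), against 0 of 47 T1 cells.

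**Figure D3:**
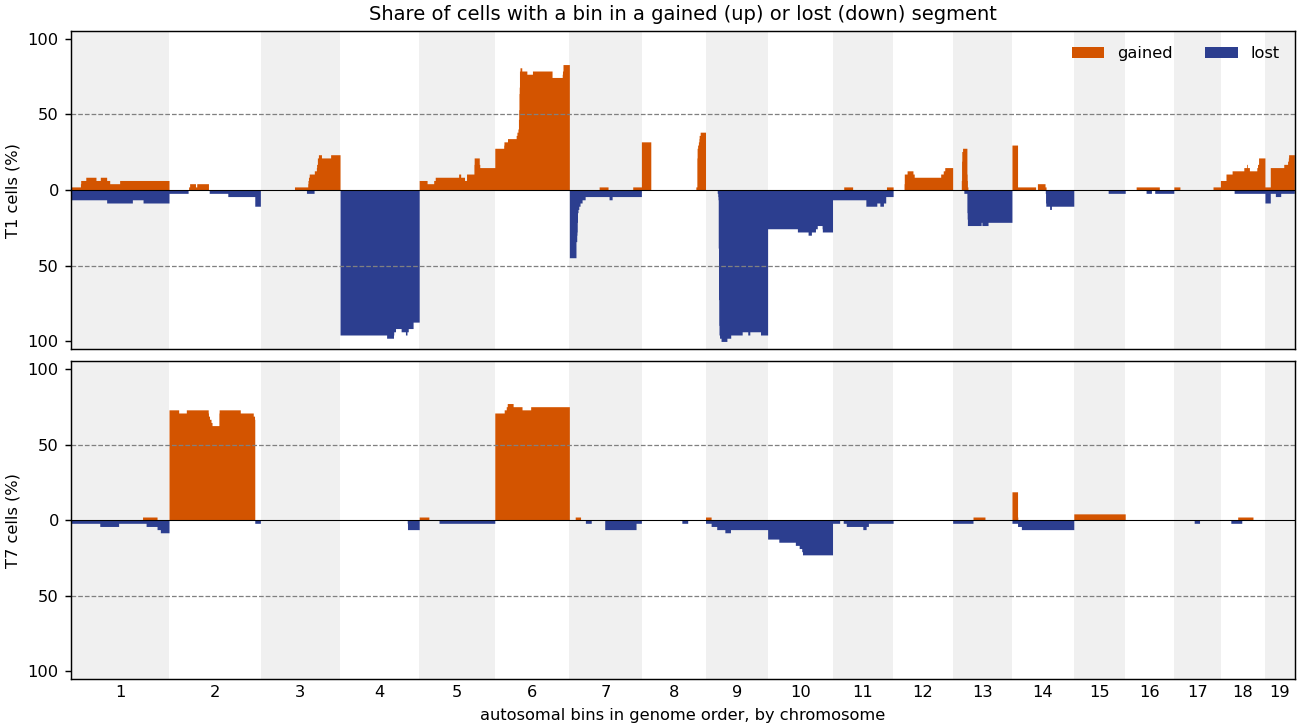
Share of cells (%) in which a bin lay in a gained segment (upward) or a lost segment (downward), for 47 T1 cells (top) and 48 T7 cells (bottom), with bins in genome order and dashed lines at 50%. Distal chromosome 6 passes 50% upward in both tumours, proximal chromosome 6 and chromosome 2 only in T7, and chromosome 4 and distal chromosome 9 pass 50% downward only in T1.

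The chromosomes without calls in most cells also differed. In T7 the medians of the 15 chromosomes other than 2, 4, 6 and 9 lay between -0.04 and -0.01. In T1 they ran from -0.19 to 0.22. The spread of these 15 chromosomes within a cell, as an SD, was 0.115 to 0.42 with a median of 0.207 over T1 cells and 0.010 to 0.221 with a median of 0.062 over T7 cells, and it was larger than in any T7 cell in 21 of 47 T1 cells. This spread does not depend on how a cell was centred.

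Most of the T1 chromosomes lay at either of 2 levels. Chromosomes 2, 3, 5, 8, 12, 14 and 18 had T1 medians between 0.16 and 0.22, and chromosomes 7, 10, 11, 15 and 16 had T1 medians between -0.19 and -0.16. Chromosomes 1, 13, 17 and 19 lay between them, with T1 medians from -0.11 to 0.11, and were put in neither group. The higher group of 7 and the lower group of 5 were chosen from these T1 values, so the gap between them in T1 is a description and supports nothing. The gap within a cell ran from 0.05 to 0.52 with a median of 0.37 (SD 0.08) in T1, and from -0.18 to 0.08 with a median of 0.0035 (SD 0.04) in T7. The higher group lay above the lower in 47 of 47 T1 cells and in 27 of 48 T7 cells, and 46 T1 cells had a larger gap than any T7 cell.

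The levels of 4 groups in T1 followed each other in steps. From chromosome 4 and distal 9 up to the lower group the step within a cell had a median of 0.49, from the lower to the higher group 0.37, and from the higher group to distal 6 it was 0.28. This order from low to high was present in 43 of 47 T1 cells and 19 of 48 T7 cells. The groups were picked by T1 levels or by calls that include T1, so the order in T1 is a description and supports nothing. For scale, the step from 2 to 3 copies is 0.58 on the log2 scale, from 3 to 4 copies 0.42, from 4 to 5 copies 0.32 and from 2 to 1 copies -1. The copy number of each group was not measured. In T7 the step from the higher group to distal 6 had a median of 0.40. The level of that group is the median of its chromosomes, so the T7 gain of chromosome 2, which belongs to it, does not show there. The r of the T1 gap over cells was 0.15 with depth and 0.30 with noise, and the gap was 0.36 in the 23 T1 cells and 0.0024 in the 23 T7 cells matched for depth. The higher chromosomes held 3.84 to 7.57 listed genes per bin and the lower ones 4.43 to 9.96, and the part of gene density in the gap was not tested.

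**Figure D4:**
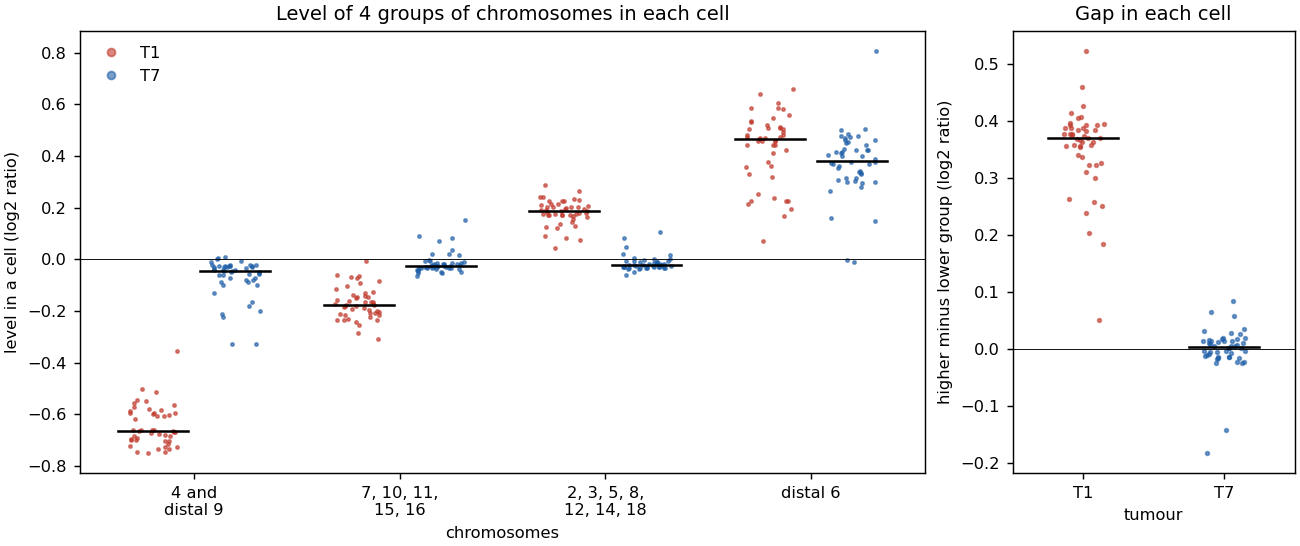
Level (log2 ratio) of 4 groups of chromosomes in each of 47 T1 and 48 T7 cells (left) and the higher minus the lower group in each cell (right), with bars at the medians. T1 cells form 4 steps with medians of -0.66, -0.18, 0.19 and 0.47, and the T7 medians lie near 0 in all groups but distal 6, with single T7 cells down to -0.33 for chromosome 4 and distal 9 and up to 0.15 for the lower group. The groups in the middle were chosen from T1 values and the outer ones from calls that include T1. Chromosomes 1, 13, 17 and 19 are in no group.

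Counted by T1 cells beyond the most extreme T7 cell, chromosomes 12, 5, 15 and 3 followed chromosome 4, although their medians differed less than those of chromosome 9. T1 lay above the highest T7 cell on chromosome 12 in 44 of 47 cells (medians 0.19 and -0.02), on chromosome 5 in 41 cells (0.18 and -0.03) and on chromosome 3 in 40 cells (0.18 and -0.03). T1 lay below the lowest T7 cell on chromosome 15 in 41 of 47 cells (medians -0.18 and -0.02). On chromosome 18 the medians of 0.22 and -0.02 differed by more, 0.24, but 17 of 47 T1 cells lay above the highest T7 cell. That difference was 0.14 with centring on the mode. With centring on the mode the differences of 0.21 on chromosomes 12, 5 and 3 were 0.12, 0.11 and 0.10, and that of -0.16 on chromosome 15 was -0.26. The differences on chromosomes 7 and 11, -0.15 and -0.16, fell to -0.0088 and turned to 0.05 with the ratio taken from depth. On chromosomes 13 and 17 the T1 cells lay on both sides of T7. On chromosome 13, 14 T1 cells were above the highest and 13 below the lowest T7 cell, and on chromosome 17 these counts were 12 and 14.

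**Figure D5:**
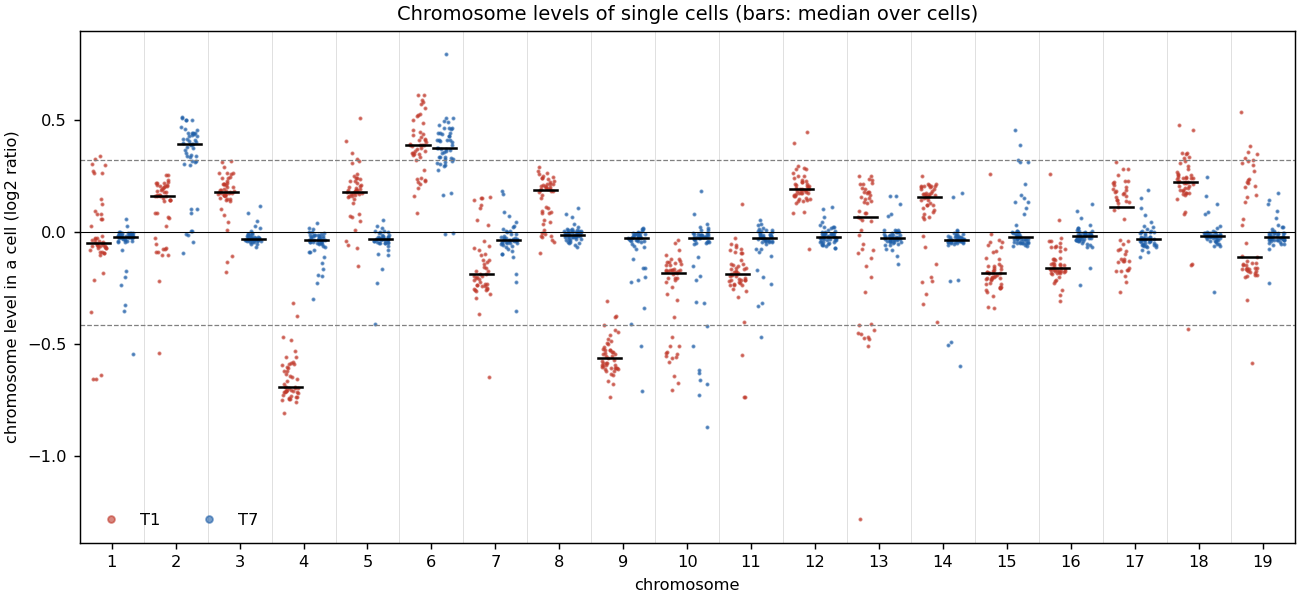
Level of each chromosome (log2 ratio) in 47 T1 cells (red) and 48 T7 cells (blue), with bars at the median over cells and dashed lines at the gain and loss thresholds. All T1 cells lie below all T7 cells on chromosome 4, and chromosomes 1, 13, 17 and 19 are spread more widely in T1 than in T7.

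Cells differed more from each other in T1. The SD over cells of a bin's segment level had a median of 0.153 over bins in T1 and 0.108 in T7, and it was larger in T1 at 3786 of 4806 bins. By chromosome it was widest in T1 on chromosomes 13 (0.342), 19 (0.253) and 1 (0.239), where T7 had 0.089, 0.063 and 0.111. T7 was the wider on chromosomes 2, 9, 10 and 15, with 0.263 against 0.201 on chromosome 10. The noise of T1 cells was also higher, and its part in this spread was not tested.

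Losses in a minority of T1 cells and few T7 cells held 342 bins (7.12%). Proximal chromosome 7, 3000001 to 19123448, showed a loss in 21 T1 cells (44.7%, 30.2 to 59.9) and 0 T7 cells, with T1 levels from -0.89 to 0.09 (median -0.41) and T7 levels from -0.40 to 0.25 (median -0.05). Chromosome 13 from 32179806 to its end was lost in 10 of 47 T1 cells and in no T7 cell, and its lowest T1 level was -1.41. The proximal part of chromosome 10 was lost in 12 of 47 T1 and 7 of 48 T7 cells. Loss of distal chromosome 10, 70187514 to 130594993, reached a minority of both tumours over 121 bins (2.52%), in 13 of 47 T1 cells (27.7%, 15.6 to 42.6) and 11 of 48 T7 cells (22.9%, 12.0 to 37.3). Its lowest levels were -0.70 in T1 and -0.90 in T7, so the shares and ranges overlapped.

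Gains in a minority of T1 cells and few T7 cells held 271 bins (5.64%). They lay on parts of chromosomes 3, 5, 8, 13, 14, 18 and 19. On chromosome 8 the part before 20712178 showed a gain in 15 T1 cells (31.9%, 19.1 to 47.1) and the part after 112253533 in 18 (38.3%, 24.5 to 53.6), each with 0 T7 cells. Chromosome 13 from 21128090 to 31175104 was gained in 13 of 47 T1 cells, with levels from -0.21 to 2.70 (median 0.17) in T1 and from -0.62 to 0.18 (median -0.02) in T7. The end of chromosome 3 from 115510593, chromosome 5 from 111036893 to 121112190 and the end of chromosome 18 from 77932880 were each gained in 10 T1 cells and the end of chromosome 19 from 49327614 in 11, all in 0 T7 cells. Proximal chromosome 14 showed a gain in 14 T1 cells, beside 9 T7 cells (18.8%, 8.95 to 32.6) and 15 of 50 T9 cells. Its first 4.98 Mb was high in all 3 tumours, where the T1 median was 0.56, the T7 median 0.63 and the T9 median 0.73. No bin was gained in a minority of T7 cells and few T1 cells, or lost in that way.

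Breakpoints recurred more often in T1. A breakpoint is a step of at least 0.3 between segments, and it was recurrent when at least 20% of a tumour's cells had one in the same direction within 2 Mb. T1 had 6 recurrent breakpoints and T7 had 2. The median number of breaks per cell was 6 in T1 (range 1 to 20) and 2 in T7 (0 to 17), and over cells its r with noise was 0.21 in T1 and 0.57 in T7. Both T7 breakpoints, on chromosome 14 at 13946469 (19 of 48 T7 and 15 of 47 T1 cells) and near the end of chromosome 2 (33 of 48 and 25 of 47 cells), were shared with T1. They also recurred in T9, the other tumour of the series, in 14 and 31 of its 50 cells, and none of the shared ones remained once 31 bins that depart alike from their surroundings in all 3 tumours were left out.

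The other 4 breakpoints, those of T1 on chromosomes 8, 9 and 13, had no counterpart in T7. The step down on chromosome 8 was placed after 20712178 in all 15 cells that had it, with a median size of -0.99. On chromosome 13, 13 cells stepped up near 21128089, by a median of 1.03, and the same 13 cells stepped down near 31677454, by -1.66. The chromosome 8 and 13 changes went together, with both in 12 of 47 T1 cells (25.5%, 13.9 to 40.3), chromosome 8 alone in 3, chromosome 13 alone in 1 and neither in 31. Of the 15 cells with the chromosome 8 step, 13 also had the chromosome 9 step that nearly all T1 cells carried.

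The difference profile itself was divided into segments to find narrower contrasts. Of 90 segments, 16 had a mean T1 minus T7 difference of at least 0.32 in size, 4 with T1 higher and 12 with T1 lower. Chromosome 4 held 6 and chromosome 9 held 3 of the lower ones. Within chromosome 4 the difference was deepest at 132110310 to 136552817, with a mean of -0.88 over 9 bins that include Arid1a, against -0.60 over the first 110.3 Mb. On chromosome 9, 105948360 to 110408239 lay at -0.80 between stretches at -0.57 and -0.55. These deeper stretches held 15.4 and 20.0 listed genes per bin, against a mean of 6.40 over all bins. Over bins, the rho of a bin's departure from its difference segment with its number of listed genes was -0.16. The part of gene density in these stretches was not tested. With the ratio taken from depth they lay at -0.48 and -0.47, while the stretches of chromosome 4 from 123888476 and 136552818 and of chromosome 9 from 110408240 missed the size of difference at -0.23, -0.044 and -0.30.

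Outside these chromosomes, 3 short stretches of chromosome 5 were higher in T1. The one from 35178989 to 38157786 had T1 levels from -0.06 to 0.67 (median 0.40) and T7 levels from -0.39 to 0.21 (median -0.09), with 40 of 47 T1 cells above the highest T7 cell. The one from 111036893 to 113521974 had T1 levels from -0.02 to 0.96 (median 0.49) and T7 levels from -1.03 to 0.31 (median -0.04). The mean of its own 5 bins reached the gain threshold in 37 T1 cells. This count by level differs from the calls above, which need a segment of at least 10 Mb in the cell and placed a gain over the longer region in 10 T1 cells. The one from 116061380 to 121112190 had medians of 0.40 and -0.01, and its mean difference of 0.41 was 0.31 with centring on the mode. The first 2 stayed past 0.32 in the 7 alternatives run, with mean differences of 0.44 to 0.92 and 0.47 to 1.05.

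Of the remaining segments, 1 was higher in T1 and 3 were lower. The start of chromosome 8 from 5471049 to 20443135 had medians of 0.31 in T1 and 0.0043 in T7, with 44 of 47 T1 cells above the highest T7 cell, and its mean difference of 0.37 was 0.27 with centring on the mode. The lower ones were the start of chromosome 7 to 23665333, chromosome 2 from 118558670 to 123053982, which holds Mga and B2m, and chromosome 15 from 80741649 to 83233267. Their mean differences of -0.36, -0.45 and -0.43 were -0.27 in depth-matched cells and -0.29 without the bins of lowest weight for chromosome 7, and -0.22 and -0.085 with the ratio taken from depth for chromosomes 2 and 15. These 3 lower stretches held 12.2, 14.7 and 12.4 listed genes per bin, and the higher one on chromosome 8 held 4.87. The mean over all bins was 6.40, and the part of gene density was not tested.

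Single bins gave the largest differences and were the least certain. Of the 10 bins with the largest differences, 8 belonged to the tenth of bins with the lowest deposited weight, 7 lay on chromosome 4 and 8 were lower in T1. The second largest difference was on chromosome 9. The bin from 34811850 to 35309466, within the private loss, had T1 levels from -2.16 to -0.65 with a median of -1.58, and T7 levels from -1.33 to 0.68 with a median of -0.04. In 37 of 47 T1 cells it was lower than in any T7 cell. Its deposited weight of 0.57 was at percentile 0.48 of the bins, so its level is among the least certain. The bin holds Kirrel3, a cell adhesion gene, and Foxred1, a gene for assembly of mitochondrial complex I.

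Listed genes were read from the bin that holds them, so a value is that of the surrounding 500 kb or segment and neighbouring genes share it. Of 94 listed genes, 26 (27.7%) lay in bins lower in T1 by at least 0.32 and 3 (3.19%) in bins higher in T1, beside 15.5% and 6.49% of all bins. The median bin difference was -0.06 over the listed genes and -0.02 over all bins.

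Of 28 tumour suppressor genes, 7 lay in the losses of most T1 cells and 17 in no class of change. By bin difference, 12 were in bins lower in T1, 9 of them on chromosomes 4 and 9, and 1 was in a bin higher in T1, and the median difference was -0.20. Cdkn2a, which encodes the cell cycle inhibitors p16 and p19 (chromosome 4), had segment levels from -0.74 to -0.34 with a median of -0.67 in T1 and from -0.32 to 0.0058 with a median of -0.05 in T7. It was lost in 45 of 47 T1 and 0 of 48 T7 cells, and the neighbouring Cdkn2b had the same values. Arid1a, a subunit gene of a chromatin remodelling complex, was lost in 45 of 47 T1 cells with a median of -0.69 and had the largest bin difference of the listed genes, -1.03. The weight of that bin was low, at percentile 6.08 of the bins, and the segment medians of Arid1a differed by -0.66.

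On distal chromosome 9, Chek1 and Atm, kinase genes of the DNA damage response, were lost in 47 and 45 of 47 T1 cells, and each in 3 of 48 T7 cells. Setd2, a histone methyltransferase gene, and Tgfbr2, a receptor gene of TGF-beta signalling, were lost in 44 and 45 T1 cells. These 4 genes had medians of -0.64 in T1. Keap1 and Smarca4, before the breakpoint, had bin differences of -0.34 and -0.37 but segment levels of -0.20 in T1 and were lost in 0 of 47 T1 cells. The suppressor genes Tsc1 and Mga were gained with chromosome 2 in 34 and 35 T7 cells, and Cdkn1b was gained with distal chromosome 6 in 35 T1 and 36 T7 cells, so not all suppressors lay in losses. The gene in a bin higher in T1 was Arid1b, a relative of Arid1a on chromosome 17, with a bin difference of 0.41. Nf2 on chromosome 11 and the histone methyltransferase gene Kmt2d on chromosome 15 had bin differences of -0.42 and -0.39, with loss in 3 and 1 T1 cells. Stk11 on distal chromosome 10 was lost in 13 T1 and 11 T7 cells.

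Of 26 growth and oncogenes, 7 were in bins lower in T1 and 1 in a bin higher in T1, with a median difference of -0.05. Mycl and Jun, transcription factor genes on chromosome 4, were lost in 44 and 46 of 47 T1 cells and in no T7 cell. Nfe2l2, which encodes the oxidative stress regulator NRF2, followed chromosome 2, with a gain in 35 T7 and 2 T1 cells. Met, which encodes the hepatocyte growth factor receptor, and Braf, whose product acts upstream of MEK, are on proximal chromosome 6 and were gained in 34 and 36 T7 cells but in 13 and 16 T1 cells. Ccnd2, a D-type cyclin gene on distal 6, was gained in 35 T1 and 36 T7 cells. Irs2, an insulin receptor substrate gene on proximal chromosome 8, had T1 levels from -0.03 to 1.08 and T7 levels from -0.27 to 0.19. Sox4 and E2f3, transcription factor genes in the chromosome 13 gain, each reached 2.59 in T1 and 0.17 in T7. Erbb3, Mdm2 and Cdk4 on distal chromosome 10 were each lost in 13 T1 and 11 T7 cells. Tert on chromosome 13 was lost in 10 T1 and 0 T7 cells. Erbb2, a receptor tyrosine kinase gene on chromosome 11, had a bin difference of -0.37 and was lost in 5 T1 cells and 1 T7 cell.

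Of 15 genes of alveolar type 2 identity and lung lineage, 1 was in a bin lower in T1 and 0 in a bin higher. That gene was Lyz2, a lysozyme gene on distal chromosome 10, lost in 13 T1 and 11 T7 cells. Sftpb, a surfactant protein gene on chromosome 6, was gained in 36 T1 and 35 T7 cells. Foxa2 and Hnf4a, endodermal transcription factor genes on chromosome 2, were each gained in 34 of 48 T7 cells and 0 of 47 T1 cells. The lineage factor gene Nkx2-1 had medians of 0.20 in T1 and -0.02 in T7 and lay in no class of change, and Sftpc stood at 0.15 and -0.04.

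Of 16 genes of plasticity and mesenchymal state, 3 were in bins lower in T1 and 1 in a bin higher. Slc4a11, a membrane transporter gene, Vim, which encodes the intermediate filament vimentin, and Zeb2, a transcriptional repressor gene, each followed the chromosome 2 gain in 35 T7 cells, and were gained in 0, 0 and 2 T1 cells. Snai1, another repressor gene, was gained in 34 T7 cells. Its relative Snai2 on chromosome 16 and the chromatin protein gene Hmga2 on chromosome 10 had bin differences of -0.38 and -0.37, and Runx2, a transcription factor gene on chromosome 17, had 0.34. Of the 8 genes of antigen presentation and interferon response, Ifnb1 and Jak1 were lost with chromosome 4 in 45 and 46 of 47 T1 cells and in no T7 cell. B2m, the light chain of MHC class I, was gained with chromosome 2 in 35 T7 cells and lost in 2 T1 cells. Ifngr1 on proximal chromosome 10 was lost in 12 T1 and 6 T7 cells.

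Of the engineered loci, Gt(ROSA)26Sor (chromosome 6, 113067428 to 113077244) was gained in 37 T1 and 36 T7 cells and had medians of 0.47 and 0.38. Trp53 (chromosome 11, 69580348 to 69591873) was called lost in 5 T1 and 2 T7 cells, with levels from -0.76 to 0.12 (median -0.20) and from -0.63 to 0.07 (median -0.03). Bins of this size cannot resolve the floxed exons of Trp53. The 47 listed genes in no class of change and with smaller differences had segment medians from -0.23 to 0.23 in T1 and from -0.05 to -0.01 in T7.

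The shares of cells rest on the thresholds. With thresholds of 0.45 and -0.70, no bin was lost in most T1 cells, gained in most T7 cells or gained in most cells of both. The differences of the levels do not depend on these thresholds.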

How the data were processed

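Each sample is 1 cell, and each group 1 tumour. The submitters' processing notes name BWA 0.7.17 and GRCm38. The authors deposited 3 tables, with the coverage signal of each bin and cell, its log2 ratio, and a weight score that was equal in all cells. For the ratios and weights, and for cell sorting and amplification, the tool and reference were not given in the sources used here. Of 5331 bins, 4806 were autosomal, with a median length of 500 kb.

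Noise was estimated per cell from neighbouring autosomal bins, as the median absolute difference scaled by 1.4826 and by the square root of 2. Its limit was the median plus 3 scaled median absolute deviations over 150 cells. Kept cells were centred on their autosomal median and segmented per chromosome by least squares. The penalty was the noise variance multiplied by 3 and by the log of the bin count, and a segment held at least 5 bins and 10 Mb. The difference profile, T1 minus T7 of medians over cells, was segmented likewise with no least length in Mb. Among T1 and T7 cells 0 columns were identical (highest r 0.868). Genes were placed with RefSeq's GRCm38.p6 table. Segmentation and calls were tested on simulated data. No doublet caller was run.

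Members, gene lists and thresholds were chosen with earlier results of these data known, and the T1 level groups after the values were seen. Chromosomes were named by the size of their difference or by their range over cells, difference segments past 0.32 up to 15, and breakpoints when recurrent. Listed genes were named when their bin passed 0.32 or lay in a change in most cells of either tumour. Genes in minority changes, Nkx2-1, Sftpc, Trp53, Kirrel3 and Foxred1 were named after their values were seen. An allele of the model is not reported here. Alternatives varied the centring, ratio, cells, bins, thresholds, penalty and windows. Tools were Python 3.11.15 with numba 0.67.0, numpy 2.4.6, scipy 1.17.1, pandas 2.3.3 and matplotlib 3.10.9.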

Additional observations from a re-analysis of the deposited data

How the results depend on the processing

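The 504 bins lost in most T1 and few T7 cells were the same bins with all cells, with the stricter cell filter and in depth-matched cells. Centring on the mode called 530, all 504 among them, and the ratio taken from depth called 560, with 370 of the 504 among them. With that ratio, 901 bins were higher and 1123 lower in T1, 201 were gained in most T7 and few T1 cells, T1 had 102 recurrent breakpoints, T7 had 12, 8 were shared, and 88 difference segments passed. Centring on the mode gave 114 higher bins. A size of difference of 0.20 gave 892 higher and 1253 lower bins, and 0.45 gave 67 and 490. Stricter thresholds gave 0, 0 and 0 bins lost in most T1, gained in most T7 and gained in most cells of both. Looser ones gave 85 bins for the gain of T7 and 315 for that of both, and both classes held 0 bins with shares of 80% and 10%. Without the bins alike in all tumours, and without the bins of lowest weight, 0 T7 and 0 shared breakpoints recurred. A penalty of 5 left 1 shared breakpoint and 7 difference segments; depth-matched cells gave 10 and the bins of higher weight 9. The 19 chromosome differences kept their sign in all 8 alternatives except for chromosomes 6 (4 of 8), 11 (7) and 19 (6). The gap between the chromosome groups, whose alternatives were added after seeing the data, stayed within 1 SD in all of them. No paired analysis was possible because the tumours share no cell number and no result comes from a test.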
